A study of Mus musculus with 4 samples.

Results

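The 10 cardiac lineage genes described here were 7 transcription factor genes, Nkx2-5, Tbx5, Tbx20, Hand1, Hand2, Mef2c and Isl1, and 3 genes of the contractile apparatus, Myh6, Myh7 and Tnnt2. They were chosen by name from the 21418 autosomal protein-coding genes of the annotation. Of the 15311 RAD21 sites deposited for mouse embryonic stem cells (ESCs), 27 lay within 100 kb of the body of 1 of these genes, as did 17 of the 11022 sites deposited for embryoid bodies (EBs). Joined over both lists, the genes had 32 sites.

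RAD21 was measured by ChIP-seq in R1/E ESCs (differentiation day 0) and in EBs derived from them (day 12), with 1 RAD21-GFP library and 1 goat IgG isotype control library for each, 4 libraries in all. All cells carried a GFP-tagged Rad21 copy on a bacterial artificial chromosome next to their own Rad21 gene, and the tag was precipitated with a goat antibody against eGFP. The control libraries are also described as input DNA in their labels and are called IgG here. The autosomes held 13714772 reads in the ESC RAD21 library, 7740389 in the EB RAD21 library, 12602155 in the ESC IgG library and 6929293 in the EB IgG library. With 1 library per group there was no test between conditions, and every interval below is an exact 95% interval that covers counting error only. RNA was not measured in these libraries, so the activity of the genes in either cell type is not known here. EBs are mixtures of cell types, so that binding in fewer cells and weaker binding in each cell cannot be told apart.

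Cohesin is a ring-shaped complex, of which RAD21 is a subunit, that holds sister chromatids together and helps to fold chromosomes into loops. On chromosomes it is often found where the zinc finger protein CTCF is bound, and smaller amounts are found at active enhancers and promoters. NKX2-5, TBX5, TBX20, the HAND proteins, MEF2C and ISL1 are transcription factors that direct the formation of the heart, and they act in heart progenitors that arise while ESCs differentiate.

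Placed by protein-coding genes only, 24 of the 32 sites were intergenic, 8 were in introns and 0 in exons. Of the 32 sites 6 lay inside the body of a cardiac gene. No summit of either list lay within 1 kb of the annotated 5′ end of any of the 10 genes. Such summits were rare over all genes too, 2.31% in ESCs and 2.22% in EBs, so that 0 of 10 does not set the cardiac genes apart. The nearest start of a protein-coding gene belonged to a cardiac gene for 15 of the 32 sites, and the other 17 were closer to another gene. Sites are named below by the gene and by the distance of the summit from its start, positive in the direction of transcription. All positions refer to the mouse build mm9.

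**Figure D1:**
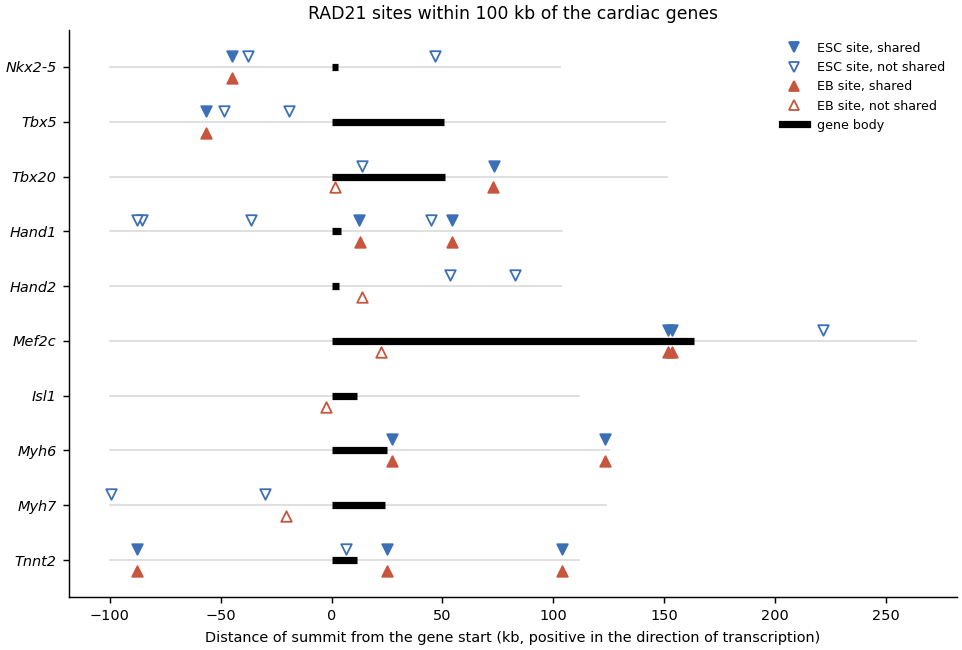
Positions of the ESC sites (blue, above each line) and EB sites (red, below) along the 10 genes; the x axis is the distance of the summit from the gene start in kb, black bars are gene bodies and grey lines the range searched. Filled symbols are sites shared by both lists. Each site is drawn once, under its nearest gene. Isl1 has a single EB site and no ESC site.

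An ESC site within 100 kb was found for 9 of the 10 genes, all except Isl1, and an EB site for 10 of 10. Over all genes the shares were 82.3% in ESCs and 73.6% in EBs. Hand1 had the most ESC sites, 6, of which 2 were shared with EBs. There were more ESC than EB sites at 6 genes, equal numbers at 3 and more EB sites at 1, Isl1. Over all genes 51.9% had more ESC and 14.5% more EB sites, near the shares of the 10. The lists came from libraries of unequal depth, which bears on these numbers. Of the 27 ESC sites 12 overlapped an EB site (44.4%, 25.5 to 64.7), against 48.5% of all ESC sites. Of the 17 EB sites 12 overlapped an ESC site (70.6%, 44.0 to 89.7), against 67.8% of all EB sites. Both shares lay near those of all sites.

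The sites fell into 3 classes that differed in sequence, and a few of each are printed here because the results below turn on them. The first class was shared by both cell types, and 10 of its 12 ESC sites held a match to the binding motif of CTCF at the stricter threshold described below. Each line gives 60 bases in the orientation of the motif, with the matrix match in capitals.
Mef2c +151.6 kb, chr13:83794653-83794712, minus strand: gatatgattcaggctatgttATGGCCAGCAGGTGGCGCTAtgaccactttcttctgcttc
Mef2c +153.5 kb, chr13:83796554-83796613, minus strand: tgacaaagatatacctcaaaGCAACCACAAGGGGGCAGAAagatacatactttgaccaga
Tnnt2 -87.8 kb, chr1:137649643-137649702, minus strand: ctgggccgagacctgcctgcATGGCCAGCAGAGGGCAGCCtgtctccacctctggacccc
Hand1 +12.6 kb, chr11:57633637-57633696, plus strand: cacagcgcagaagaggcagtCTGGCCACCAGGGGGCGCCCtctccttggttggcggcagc

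The second class was on the ESC list only. All 15 of its sites held a CTCF match at the wider threshold described below, and 9 did at the stricter one. Several of its CTCF matches looked alike, also in the bases that flank them. These 6 sites are shown because they share the run of 11 letters CCAGAAGAGGG at the heart of the match. The matches at Hand1 -87.6 kb, Tbx5 -48.4 kb and Myh7 -99.5 kb passed only the wider threshold.
Tbx20 +13.6 kb, chr9:24565081-24565140, plus strand: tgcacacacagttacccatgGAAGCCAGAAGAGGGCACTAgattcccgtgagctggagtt
Hand2 +82.9 kb, chr8:59882566-59882625, plus strand: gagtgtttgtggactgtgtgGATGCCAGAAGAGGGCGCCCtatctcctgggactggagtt
Nkx2-5 -37.8 kb, chr17:27016342-27016401, minus strand: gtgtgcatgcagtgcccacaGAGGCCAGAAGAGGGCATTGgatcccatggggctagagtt
Hand1 -87.6 kb, chr11:57733949-57734008, minus strand: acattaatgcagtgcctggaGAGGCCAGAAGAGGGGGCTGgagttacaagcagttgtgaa
Tbx5 -48.4 kb, chr5:120236141-120236200, plus strand: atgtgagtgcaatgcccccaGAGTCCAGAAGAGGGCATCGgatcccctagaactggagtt
Myh7 -99.5 kb, chr14:55712960-55713019, plus strand: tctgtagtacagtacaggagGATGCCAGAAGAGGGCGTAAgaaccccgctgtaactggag

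The third class was on the EB list only and held no CTCF match within 150 bp of its summits. All 5 sites are shown on the plus strand, with the 21 bases centred on the summit in capitals.
Tbx20 +1.6 kb, chr9:24577122-24577222: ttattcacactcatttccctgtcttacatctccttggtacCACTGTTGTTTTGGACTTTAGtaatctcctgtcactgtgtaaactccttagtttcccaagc
Hand2 +13.8 kb, chr8:59813500-59813600: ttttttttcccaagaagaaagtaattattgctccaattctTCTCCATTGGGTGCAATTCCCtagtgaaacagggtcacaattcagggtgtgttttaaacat
Mef2c +22.1 kb, chr13:83665062-83665162: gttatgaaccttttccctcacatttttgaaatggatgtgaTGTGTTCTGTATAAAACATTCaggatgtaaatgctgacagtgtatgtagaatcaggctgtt
Isl1 -2.7 kb, chr13:117102503-117102603: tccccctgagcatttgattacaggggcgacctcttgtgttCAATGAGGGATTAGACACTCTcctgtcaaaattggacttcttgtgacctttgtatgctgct
Myh7 -20.6 kb, chr14:55634016-55634116: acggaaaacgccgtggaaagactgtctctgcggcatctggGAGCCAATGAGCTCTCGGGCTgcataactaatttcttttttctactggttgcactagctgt

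The CTCF motif was scored with a weight matrix of 20 positions learned from the sites themselves, with the odd-numbered chromosomes used to score the others and the reverse. At a threshold passed by 1e-05 of the positions in random genome windows, 19 of the 27 ESC sites (70.4%, 49.8 to 86.2) and 11 of the 17 EB sites (64.7%, 38.3 to 85.8) had a match within 150 bp of the summit. All ESC sites had one in 56.4% and all EB sites in 52.6%, which lay within the intervals of the cardiac sites. At the wider threshold of 1e-04 a match was found at 26 of 27 ESC and 12 of 17 EB sites. At that threshold the EB sites divided by class. All 12 shared EB sites had a match and 0 of the 5 EB-only sites had one, which allows a share of up to 60% by 3 counts of 5 and of up to 52.2% by the exact interval. Of all EB-only sites 63.6% had a match at the same threshold, and 36.4% had none. Fixed patterns of cardiac factors were searched on either strand within the same distance. AGATAAG, bound by GATA factors, was at 1 of 27 ESC sites (3.70%) and 0 of 17 EB sites, against 3.37% and 4.12% of all sites and 4.55% of 49042 random windows. TNAAGTG, bound by NKX2-5, was at 6 ESC (22.2%) and 2 EB sites (11.8%), against 15.8% and 17.8% of all sites and 16.7% of random windows. A fixed consensus of T-box factors was at 1 site of each list, against 1.16% of all ESC and 1.08% of all EB sites. These counts were too small to set the cardiac sites apart. None of the 6 patterns searched was found at an EB-only site.

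The run CCAGAAGAGGG was found on either strand within 150 bp of the summit at 10 of the 15 ESC-only cardiac sites (66.7%, 38.4 to 88.2). It was at 0 of the 12 shared and at 0 of the 5 EB-only sites. It was the most frequent run of 11 letters within the CTCF matches of all ESC-only sites, and it was looked for after the sequences of the cardiac sites had been seen. CTCF matches of this kind are known from B2 elements, a family of short interspersed repeats of the mouse, but repeat annotation was not used here. In random windows it occurred in 0.887%. The same division was present over all autosomal sites, where 20.9% of 7757 ESC-only sites held the run against 2.18% of 7328 shared ESC sites and 1.67% of 3419 EB-only sites. Since the run was picked from the ESC-only sites, the choice itself favoured a higher share there. Seen the other way, 8.96% of the ESC sites with the run were also EB sites, against 53.9% of those without it. Restricted to sites with a CTCF match, the shares with the run were 27.6% of ESC-only and 2.44% of shared ESC sites. Over all ESC-only sites the median log2 EB over ESC ratio of RAD21 was -1.57 with the run and -0.98 without it, whereas that of IgG was 0.06 and 0.28. All 4 libraries had reads of 35 bases with 1 reported position each, and how reads from repeats were placed before deposit was not tested.

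**Figure D2:**
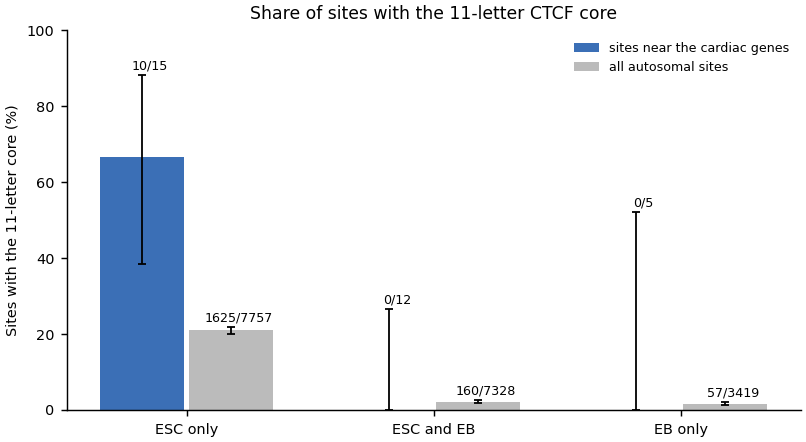
Percentage of sites with the run of 11 letters within 150 bp of the summit, for sites near the cardiac genes (blue) and all autosomal sites (grey) in the 3 classes; lines are exact 95% intervals and the labels give sites with the run over sites in the class. The run was at 10 of 15 ESC-only cardiac sites and at none of the others, and it was picked from the ESC-only sites.

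Read densities were compared at the 32 sites as reads within 250 bp of the summit per 1000000 autosomal reads (RPM). ESC sites held 14 to 55 ESC RAD21 reads (median 22) and 1 to 9 ESC IgG reads. EB sites held 10 to 42 EB RAD21 reads (median 14) and 0 to 5 EB IgG reads. With 1 read added to each count, the median RAD21 over IgG ratio was 6.43 (5.05 to 8.27) at the ESC sites and 5.82 (3.58 to 9.62) at the EB sites, near the medians of all sites, 5.82 and 6.27. The median deposited score, which is -10 times the log10 of the p-value, was 92.93 for the ESC sites, against 94.06 over all ESC sites. It was 63.39 for the EB sites, against 97.25 over all EB sites.

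The log2 EB over ESC ratio had a median of -0.50 (-1.25 to 0.27) at the 32 cardiac sites and of 0.03 at the 18504 autosomal sites of both lists. A density at least 2-fold lower in EBs was found at 13 cardiac sites, against 23.4% of all sites, and one at least 2-fold higher at 7, against 19.4%. The interval of the ratio lay below 1 at 11 cardiac sites (18.4% of all sites) and above 1 at 6 (20.2%), and it included 1 at 15. The classes were set by peak calls on these same reads, so that the direction of ESC-only and EB-only sites was given by how they were chosen. The median was -1.42 at the 15 ESC-only sites, 0.06 at the 12 shared sites and 2.05 at the 5 EB-only sites. The corresponding medians over all sites were -1.11, 0.38 and 1.49.

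**Figure D3:**
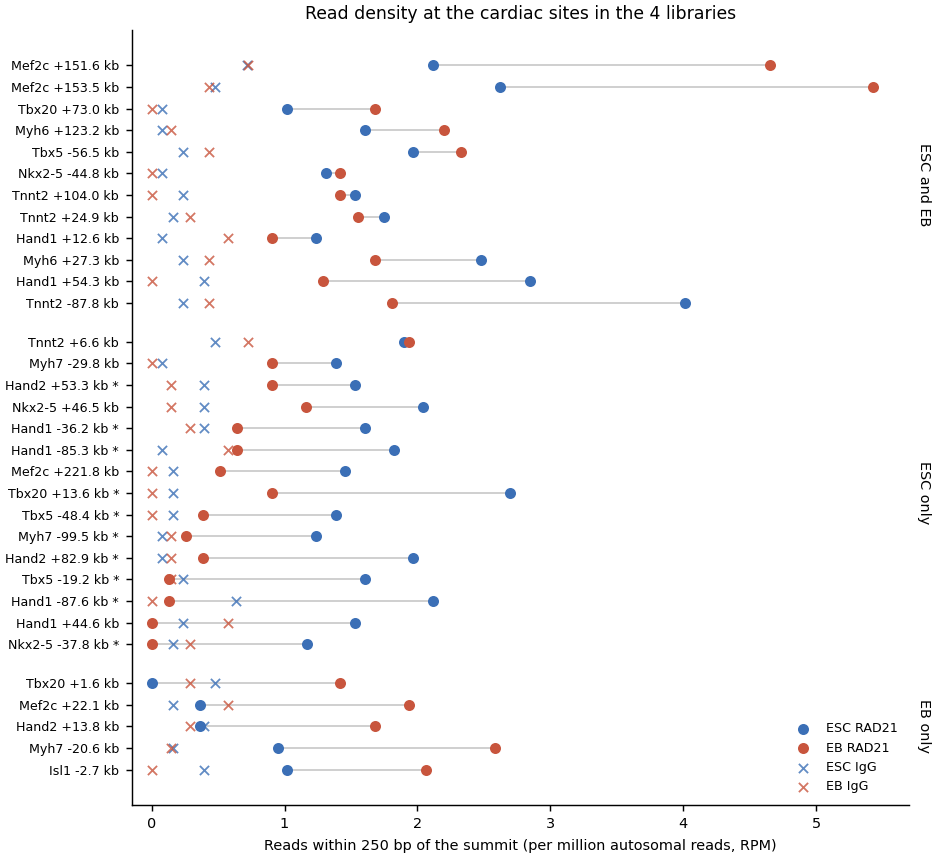
RAD21 (dots) and IgG (crosses) read density within 250 bp of each of the 32 summits, in RPM, for ESCs (blue) and EBs (red), by class and ordered by the EB over ESC ratio; an asterisk marks a site with the run CCAGAAGAGGG. Both Mef2c sites at the top have the highest EB densities, and Tnnt2 -87.8 kb has the highest ESC density.

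MEF2C is a MADS-box factor that activates muscle genes in the heart and in skeletal muscle. A pair of shared sites lay in its introns, 151.6 and 153.5 kb after its start. The site at +151.6 kb (summit at chr13:83794651) held 29 ESC RAD21 and 36 EB RAD21 reads, with 9 ESC and 5 EB IgG reads. Its density was thus 2.20-fold higher in EBs (1.31 to 3.72). The site at +153.5 kb (summit at chr13:83796506) held 36 ESC RAD21 and 42 EB RAD21 reads, with 6 and 3 IgG reads, and was 2.07-fold higher in EBs (1.29 to 3.32). Both intervals excluded 1, and they were the only 2 of the 12 shared sites at least 2-fold higher when counted at the ESC summit. Over all autosomal shared sites 1020 of 7328 were at least 2-fold higher, and 1524 had an interval above 1. The 2 higher sites of 12 thus do not set the cardiac sites apart. In the other direction 2 of the 12, Tnnt2 -87.8 kb and Hand1 +54.3 kb, were at least 2-fold lower in EBs. Over all autosomal shared sites 66 of 7328 were, a smaller share. The interval lay below 1 at the same 2 cardiac sites and at 140 of the 7328. With 2 sites this difference was not tested. The EB peak at the second of them had the highest score of the 17 EB sites, 384.51, and the CTCF matches of both sites lay on the minus strand, opposite to the gene.

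A further Mef2c site, at +22.1 kb (chr13:83664717-83665478), was on the EB list only. It held 5 ESC and 15 EB RAD21 reads, with 2 ESC and 4 EB IgG reads, a ratio of 5.32 (1.84 to 18.7). The site lay in an intron of Mef2c, with its summit 1136 bp after the start of another annotated transcript at chr13:83663976. Within 1 kb of that second start, a window that overlaps the called site, there were 8 ESC and 31 EB RAD21 reads, against 14 ESC and 11 EB IgG reads. RAD21 was 6.87-fold higher there in EBs (3.09 to 17.3), whereas the IgG ratio was 1.43 (0.59 to 3.39). At the first Mef2c start, at chr13:83643033, there were 11 ESC and 8 EB RAD21 reads against 10 and 11 IgG reads, and neither cell type exceeded IgG. The higher EB density was not restricted to the site. In the 10 kb before the second start, which lie outside the site, there were 49 ESC and 72 EB RAD21 reads, a ratio of 2.60 (1.79 to 3.82). In the 10 kb after it there were 81 and 110, a ratio of 2.41 (1.79 to 3.25). The stretch after the start takes in the called site, so that its ratio also holds the reads of the site. The IgG ratios were 0.93 (0.56 to 1.5) before and 1.39 (0.93 to 2.08) after the second start. The stretches were chosen after the read profile had been seen. The last Mef2c site, at +221.8 kb, was ESC only, with 20 and 4 RAD21 reads and a ratio of 0.35 (0.09 to 1.06). It was intergenic by protein-coding genes, but the 60 bases around its CTCF match were all exonic in the annotation of all gene types.

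**Figure D4:**
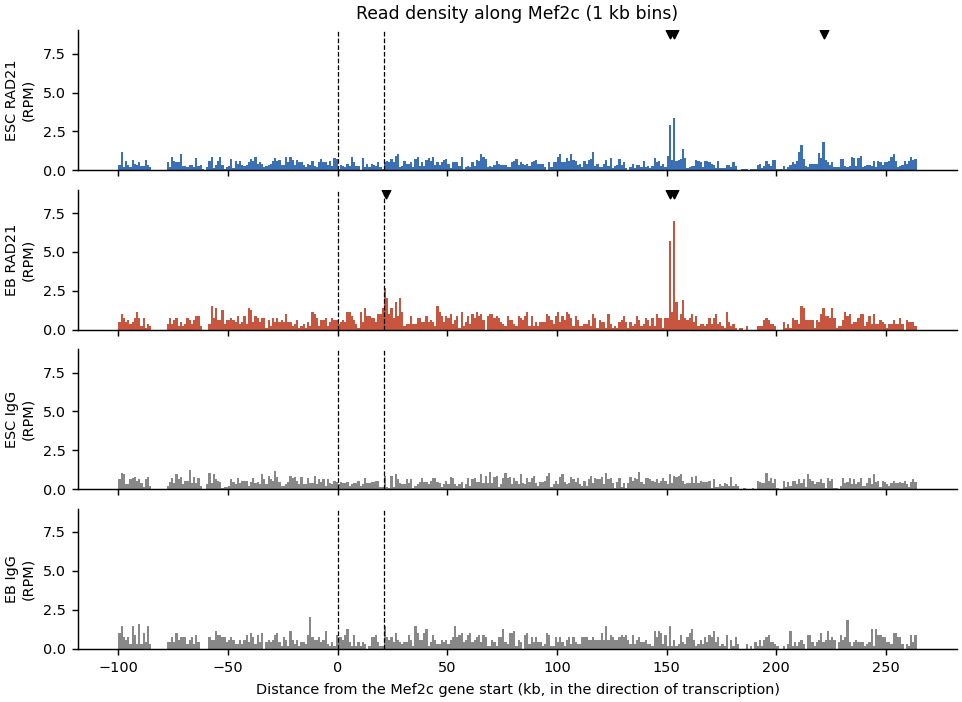
Reads per 1 kb bin along Mef2c in the 4 libraries, in RPM, against the distance from the gene start in kb; dashed lines are the starts of annotated transcripts and triangles the called sites of that cell type. The EB RAD21 library has its highest bins at the pair of sites at +151.6 and +153.5 kb and a raised stretch beside the second start, which the IgG libraries do not show.

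Tbx20 encodes a T-box factor needed for growth and septation of the heart chambers. Its site at +13.6 kb (chr9:24564839-24565752), in an intron, was the second strongest of the ESC sites by score, 188.19, and carried the run CCAGAAGAGGG. It held 37 ESC and 7 EB RAD21 reads, with 2 ESC and 0 EB IgG reads, and its EB over ESC ratio was 0.34 (0.13 to 0.76). The EB-only site at +1.6 kb (chr9:24576996-24577563) held 0 ESC and 11 EB RAD21 reads, with 6 ESC and 2 EB IgG reads. With 0 reads taken as up to 3, RAD21 was at least 6.50-fold higher in EBs there, and the exact 95% lower limit, which also covers the counting error of the EB reads, was 4.45-fold. This was among the weakest EB sites, with a score of 50.17. The shared site at +73.0 kb held 14 and 13 RAD21 reads, a ratio of 1.65 (0.71 to 3.77), and its interval included 1. Counted at the summit of the EB list, 310 bp away, it held 14 and 18, a ratio of 2.28 (1.07 to 4.95) whose interval excluded 1. Thus in EBs the RAD21 density of Tbx20 was higher near its start and lower at the intronic CTCF match.

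Hand1 and Hand2 encode basic helix-loop-helix factors of the left and of the right ventricle and outflow tract, respectively. At Hand1 the shared site at +54.3 kb, in an intron of another gene, held 39 ESC and 10 EB RAD21 reads, a ratio of 0.45 (0.20 to 0.93). The shared site at +12.6 kb held 17 and 7, a ratio of 0.73 (0.26 to 1.85). The 4 ESC-only sites of Hand1 held 21 to 29 ESC and 0 to 5 EB RAD21 reads. At +44.6 kb there were 21 ESC and 0 EB RAD21 reads, with 3 and 4 IgG reads, so that RAD21 was at least 3.95-fold lower in EBs with the same floor of 3 reads, with an exact lower limit of 2.94-fold. At -87.6 kb there were 29 and 1 RAD21 reads, with 8 and 0 IgG reads, and the ratio was 0.06 with an upper limit of 0.37. Chromosome 11, which carries Hand1, had 0.874 times the IgG density in EBs that it had in ESCs and 0.881 times the RAD21 density over its whole length. Scaled by the IgG reads of the chromosome, the ratio at +54.3 kb was 0.53 (0.24 to 1.09) and its interval included 1, as did that at -85.3 kb, which changed from 0.35 (0.11 to 0.94) to 0.42 (0.12 to 1.11).

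Hand2 shared no site between ESCs and EBs. Its ESC-only sites at +53.3 and +82.9 kb both carried the run CCAGAAGAGGG. The first held 21 ESC and 7 EB RAD21 reads, a ratio of 0.59 (0.21 to 1.44). The second held 27 and 3, a ratio of 0.20 (0.04 to 0.64). The EB-only site at +13.8 kb (chr8:59813169-59813884) held 5 ESC and 13 EB RAD21 reads, with 5 and 2 IgG reads, a ratio of 4.61 (1.54 to 16.5). The called sites thus lay nearer to Hand2 in EBs than in ESCs. On chromosome 8 the EB over ESC density was 0.811 for IgG and 0.804 for RAD21, and with the IgG scaling of the chromosome the 3 ratios were 0.75, 0.25 and 5.83.

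Isl1, a LIM homeodomain factor of second heart field progenitors, was the only gene without an ESC site. Its EB site at -2.7 kb (chr13:117102094-117102752) held 14 ESC and 16 EB RAD21 reads, with 5 ESC and 0 EB IgG reads. The EB over ESC ratio was 2.02, just past 2-fold, with an interval from 0.93 to 4.48 that included 1. The ESC library therefore also had reads there, at 2.57 times IgG (0.88 to 9.13), and a difference between the cell types was not detectable at this depth.

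Nkx2-5, a homeodomain factor that marks early cardiac progenitors, had 1 shared site, at -44.8 kb, with 18 ESC and 11 EB RAD21 reads and a ratio of 1.08 (0.46 to 2.42). At its ESC-only site at -37.8 kb there were 16 ESC and 0 EB RAD21 reads, with 2 and 2 IgG reads, at least 3.01-fold lower in EBs with the floor of 3 reads and with an exact lower limit of 2.18-fold. At +46.5 kb there were 28 and 9 RAD21 reads, a ratio of 0.57 (0.24 to 1.24). Tbx5, a T-box factor of the left ventricle and the atria, had a shared site at -56.5 kb with 27 and 18 RAD21 reads and a ratio of 1.18 (0.61 to 2.22). Its ESC-only sites at -48.4 and -19.2 kb, both with the run, held 19 and 22 ESC RAD21 reads but 3 and 1 EB RAD21 reads. For both genes the shared site was the one farthest upstream of the start, and its interval included 1.

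**Figure D5:**
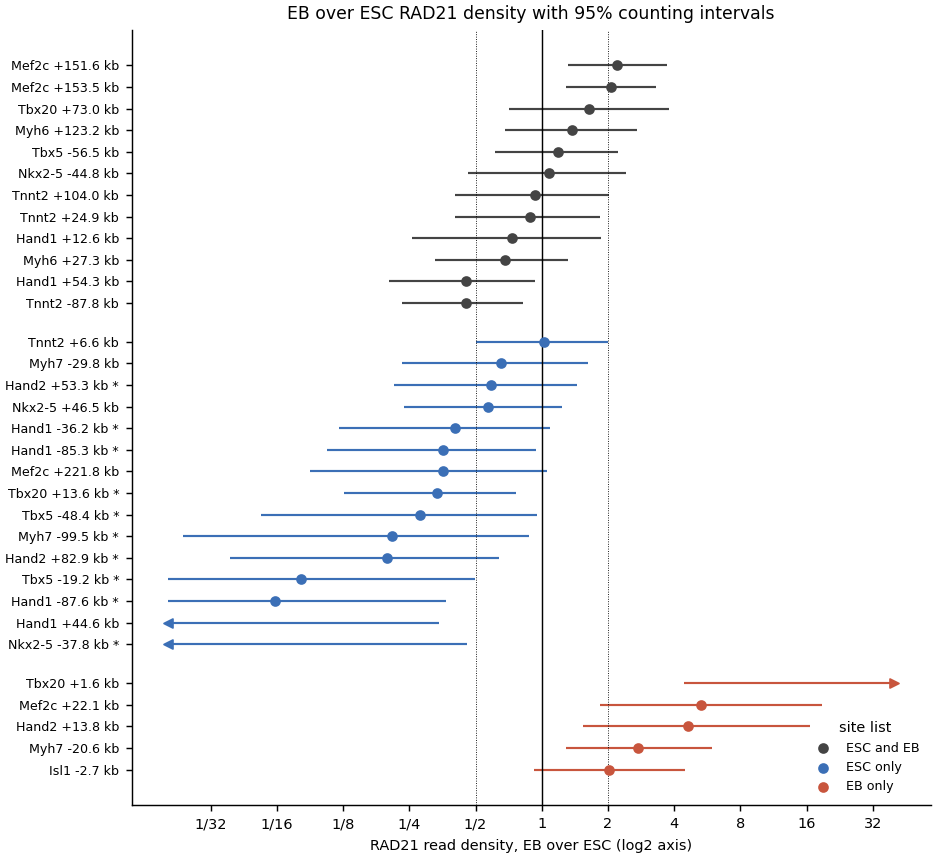
EB over ESC ratio of RAD21 read density at the 32 sites with exact 95% counting intervals, on a log2 axis; dotted lines mark 2-fold and arrowheads mark intervals that reach the edge of the plot because 1 library had 0 reads. The interval lies above 1 at 6 sites and below 1 at 11.

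Joined over both lists, the 3 genes of the contractile apparatus had 9 sites, of which 5 were shared, against 7 of 23 at the factor genes. Over all autosomal sites of both lists 7328 of 18504 were shared, a share between those of the 2 gene groups. The difference between the groups was not tested. Myh6 and Myh7, the alpha and beta heavy chains of cardiac myosin, are neighbours on chromosome 14 in the same orientation, and 100 kb around one takes in sites of the other. The shared sites at Myh6 +27.3 kb and +123.2 kb held 34 and 22 ESC RAD21 reads and 13 and 17 EB RAD21 reads, with ratios of 0.68 (0.33 to 1.32) and 1.37 (0.68 to 2.70). The EB-only site at Myh7 -20.6 kb (chr14:55633526-55634248) lay 225 bp from the start of Ngdn, which encodes neuroguidin. It held 13 ESC and 20 EB RAD21 reads, with 2 and 1 IgG reads, a ratio of 2.73 (1.29 to 5.96). The ESC library was also above IgG there, 5.97-fold (1.35 to 54.5), and it was the only EB-only site of which this can be said. The ESC-only sites at -29.8 and -99.5 kb held 19 and 17 ESC RAD21 reads and 7 and 2 EB RAD21 reads.

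Tnnt2 encodes cardiac troponin T of the thin filament, and 3 of its 4 ESC sites were shared. The site at -87.8 kb (chr1:137649053-137650077) had the highest score of the ESC sites, 327.75, and held 55 ESC RAD21 and 14 EB RAD21 reads, with 3 IgG reads in each cell type. Its EB over ESC ratio was 0.45 (0.23 to 0.82). The sites at +24.9 and +104.0 kb held 24 and 21 ESC RAD21 reads and 12 and 11 EB RAD21 reads, with ratios of 0.89 (0.40 to 1.84) and 0.93 (0.40 to 2.01). The intronic site at +6.6 kb was called in ESCs only, yet it held 26 ESC and 15 EB RAD21 reads, a ratio of 1.02 (0.50 to 2.00). Its absence from the EB list was thus not matched by a lower density. EB IgG was 5 reads there, among the highest of the cardiac sites, as at the shared site Mef2c +151.6 kb. Why the site was not called in EBs was not tested.

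RAD21 was also compared with IgG at the starts of the 10 genes. Within 1 kb of the annotated 5′ end the 10 genes had 4 to 20 ESC RAD21 and 0 to 15 EB RAD21 reads, against 2 to 13 ESC and 1 to 11 EB IgG reads. With 1 read added to each count, 1 start in ESCs, that of Tbx5, reached 2-fold over IgG, against 16.6% of all starts, with 8 and 3 reads and an interval from 0.59 to 14.3. In EBs 3 starts did, those of Tbx20, Hand2 and Isl1, against 25.6%. Both counts lay near the shares of all starts and do not set the cardiac genes apart. Hand2 had 13 EB RAD21 reads and 1 EB IgG read, a ratio of 11.6 (1.75 to 495). Isl1 had 15 and 2, a ratio of 6.71 (1.56 to 60.5). Their RAD21 densities were near those of ESCs, with EB over ESC ratios of 1.44 (0.64 to 3.19) and 1.33 (0.63 to 2.73), while their IgG was lower in EBs, 0.14 (0.0033 to 0.931) and 0.30 (0.033 to 1.36). The Hand2 and Isl1 starts also had the highest CpG ratios of the 10 (observed over expected CpG within 1 kb), 0.816 and 0.779, against a median of 0.475 over all genes. The part of the IgG level in these ratios was not tested. The Tbx20 start was the only one of the 10 at which the interval of the EB over ESC RAD21 ratio lay above 1, with 5 ESC and 11 EB reads and a ratio of 3.90 (1.25 to 14.3).

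Over whole gene bodies RAD21 density was higher in EBs at Hand2, Mef2c, Tbx20 and Isl1, which each had an EB-only site. It was not higher at Myh6 and Myh7, although 1 EB-only site lay within 100 kb of both. Myh7 had 93 ESC and 38 EB RAD21 reads, a ratio of 0.72 (0.48 to 1.07), and Myh6 was lower in EBs. The comparison of gene bodies was added after the profiles had been seen. The interval of the EB over ESC RAD21 ratio lay above 1 at 4 genes, Hand2, Mef2c, Tbx20 and Isl1, against 10% of all gene bodies. It lay below 1 at 1 gene, Myh6, against 21.2%. For IgG the interval lay above 1 at 1 gene, Mef2c (4.7% of all), and below 1 at 2, Tbx5 and Myh6 (20%). Hand2 had 18 ESC and 29 EB RAD21 reads over its 3535 bp, against 19 and 5 IgG reads, a RAD21 ratio of 2.85 (1.53 to 5.46). Mef2c had 1122 and 1011 RAD21 reads, a ratio of 1.60 (1.47 to 1.74), beside an IgG ratio of 1.15 (1.04 to 1.26). Tbx20 had 363 and 281, a ratio of 1.37 (1.17 to 1.61), beside an IgG ratio of 1.04 (0.86 to 1.25). These 3 genes were thus higher in RAD21 by more than in IgG. Isl1 had 67 and 57, a ratio of 1.51 (1.04 to 2.18), but its IgG ratio was 1.45 (0.93 to 2.25). Myh6 had 105 and 37 RAD21 reads, a ratio of 0.62 (0.42 to 0.92), and an IgG ratio of 0.68 (0.45 to 0.99). At Isl1 and Myh6 the RAD21 and IgG ratios were thus close to each other. RAD21 exceeded IgG over the gene body at 0 of the 10 genes in ESCs (12.2% of all gene bodies) and at 4 in EBs (12.5%), Hand2, Tbx20, Mef2c and Tnnt2, with ratios of 5.19, 1.43, 1.32 and 1.69. With the reads within 1 kb of site summits left out, the EB over ESC ratio was 1.52 (1.39 to 1.67) at Mef2c and 1.39 (1.17 to 1.66) at Tbx20, so that their difference was present outside the called sites. The RAD21 over IgG ratio of Tnnt2 in EBs was then 1.58 (0.84 to 3.05), and its interval included 1, whereas that of Mef2c was 1.18 (1.06 to 1.31) and that of Tbx20 1.27 (1.04 to 1.56). In ESCs the same ratio was below 1 at Mef2c, 0.89 (0.81 to 0.97), and 0.96 (0.81 to 1.13) at Tbx20. The EB over ESC ratio of IgG was then 1.14 (1.04 to 1.26) at Mef2c and 1.05 (0.86 to 1.28) at Tbx20. The part of the IgG level in these values was not tested.

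In a wider list of 40 cardiac genes, which holds no gene of the 10, 37 (92.5%) had an ESC site within 100 kb and 35 (87.5%) an EB site. Over all genes the shares were 82.3% and 73.6%. There were more ESC than EB sites at 24 of the 40 (60%), against 51.9% of all genes. Most sites were found at Tnni3, cardiac troponin I, with 7 ESC and 2 EB sites, and at Ttn, the giant sarcomere protein titin, with 6 and 4. Summits within 1 kb of a start occurred at Tnni3 and Ryr2, the calcium release channel, in ESCs and at Gja1, a gap junction protein, in EBs. Over all genes such summits were found at 2.31% in ESCs and 2.22% in EBs. A start at least 2-fold over IgG was found for 9 of the 40 genes in ESCs, against 16.6% of all starts, and for 15 in EBs, against 25.6%. For comparison, 9 blood and endothelial genes of another lineage had an ESC site in 9 and an EB site in 8 cases, and 8 neural genes in 7 and 6. The shares of the lineage lists thus lay close together, and the number of genes was too small to tell them apart.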

How the data were processed

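The authors aligned 35 base reads of 4 ChIP-seq libraries to the mouse genome (mm9, per the labels; the aligner is not given in the sources used here) and deposited 1 position per line. Read counts were formed here from the positions as deposited. The deposited peak lists were called by the authors with MACS in each cell type against its own IgG library. Their peak score is -10 times the log10 of the p-value, and the deposited summit height is a signal of piled-up reads, not scaled between libraries. The EB IgG file ended within chromosome X, so that only autosomes were compared, and 7 broken lines of the ESC IgG file were skipped. No position and strand held 2 reads.

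Gene bodies and starts came from the GENCODE annotation of mm9. Sites within 100 kb of a body were kept, and an ESC and an EB site with 1 bp or more in common were taken as shared. Reads were moved to the fragment centre, by 103 bp in ESCs and 98 bp in EBs, counted within 250 bp of summits and 1000 bp of starts, and scaled to autosomal reads (RPM). Ratios of 2 counts were given with exact conditional intervals, shares with exact Clopper-Pearson intervals, and medians with intervals of order statistics, all at the 95% level. Shared sites were counted at the ESC summit in joined lists. For calls and medians 1 read was added to each count. The counting and the motif search were tested on simulated data. Sites and genes were named as all sites of the 10 genes, the wider genes with the most sites, and those with a summit within 1 kb of a start. The members and all lists were chosen with earlier results of these data known. Python 3.11.15, numpy 2.4.6, pandas 2.3.3, scipy 1.17.1 and matplotlib 3.10.9 were used. Of the comparison lists 1 blood gene on chromosome X and 2 neural genes were not analysed here.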

Additional observations from a re-analysis of the deposited data

Results flagged for a closer look

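The EB-only site at Tbx20 +1.6 kb was singled out because its RAD21 over IgG ratio lay below 1 in ESCs and above 1 in EBs. It was called in EBs against these same IgG reads and not called in ESCs. A higher ratio in EBs thus followed from how the site was chosen. Its IgG density was 0.48 RPM in ESCs and 0.29 RPM in EBs. In ESCs there were 0 RAD21 reads against 6 IgG reads, so that the RAD21 over IgG ratio was 0 with an upper limit of 0.78. In EBs there were 11 against 2, a ratio of 4.92 (1.07 to 45.7). The difference between the 2 ratios was not tested beyond these counting intervals, since each group had 1 library.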

How the results depend on the processing

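Of 60 comparisons of a summary value with an alternative setting 41 stayed within the error or 1.5 times the main value and 19 moved. A reversal was counted only for log2 ratios of at least 2-fold, so that none of these values could be labelled as reversed. Within 250 kb there were 59 ESC and 39 EB sites. With scores of at least 100 there were 12 ESC and 5 EB sites, 7 sites at least 2-fold lower and 3 higher in EBs. With a 500 bp window 8 were lower, and the ESC RAD21 over IgG median was 4.19. With 0.1 read added it was 8.36. With IgG of the surrounding 500 kb as the scale 4 sites were higher. Starts at 2-fold over IgG in ESCs numbered 2 within 500 bp, 0 within 2 kb, 2 with any transcript start and 2 with 0.1 read added, and in EBs 1 within 500 bp and 6 with any transcript start. ESC sites with a CTCF match were 96.3% at 1e-04 and 40.7% within 75 bp, and EB sites 23.5% within 75 bp. Of 192 values of single sites 190 stayed and 2 moved, both at Hand1, +44.6 kb with reads not moved and +12.6 kb with a 100 bp window. All 20 gene body values, alternatives chosen after seeing the data, kept their direction and range. The bodies of Nkx2-5, Tbx5, Hand1, Hand2, Isl1, Myh6 and Myh7 held no reads within 1 kb of a site summit. Leaving such reads out could not change the values of these genes. No paired analysis was possible because each group had 1 library. Reads per site limited the precision. At the cardiac site with the most ESC reads, 55 against 14 in EBs, the interval still ran from 0.23 to 0.82.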
